A study of Homo sapiens with 2 samples.

Results

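The caveolin and cavin genes CAV1, CAV2, CAVIN1, CAVIN2 and CAVIN3 were described by transcript level in BEAS-2B cells that overexpress the cation channel TRPV3 and in the parental cells. They were chosen by gene symbol, with earlier results of these data known, and are 5 of the 58051 annotated genes in the files. BEAS-2B is a virally immortalised human bronchial epithelial cell line. The TRPV3-overexpressing genotype (TRPV3-OE) gave 1 RNA library, from cells at passages 4 to 8, and the parental genotype (WT) gave 1 library, from cells at passages 20 to 30. Both kinds of cell were grown in LHC-9 medium on a coat of collagen and fibronectin and frozen at confluence, and how the overexpressing cells were made, including whether they are 1 clone, is not given in the sources used here. Passage and genotype cannot be told apart.

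Caveolae are small flask-shaped pits of the plasma membrane, rich in cholesterol and sphingolipids. Caveolins are hairpin membrane proteins that form the pit, and cavins are cytosolic coat proteins that assemble on it and leave it when the membrane is stretched. In the lung, caveolae are best known from endothelium and flat alveolar epithelium, and CAV1 is also present in airway basal cells. The remaining caveolin, CAV3, and the remaining cavin, CAVIN4, belong to muscle.

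Total counts over genes were 17477953 in the TRPV3-OE library and 17450658 in the WT library. Levels are counts per 1000000 counts (CPM) after TMM scaling, where 1 count is worth 0.0562 CPM in TRPV3-OE and 0.0584 CPM in WT. All ranges in parentheses are exact 95% intervals that cover counting error only. They treat reads as independent molecules, so reads amplified by PCR would make them too narrow. Since each group is a single library (n = 1), differences could not be checked against replicates and no p-value is given. Fewer cells with a transcript and less transcript per cell cannot be told apart in bulk RNA. TRPV3 itself had 54077 counts in TRPV3-OE and 26 in WT, as the labels say. The epithelial markers EPCAM, KRT8, KRT18, CDH1 and KRT5 were abundant in both libraries, with a summed level of 2996 CPM in TRPV3-OE and 2976 CPM in WT. Within these sums the genes differed in direction. The log2 ratios of TRPV3-OE over WT were 0.55 for EPCAM, 0.38 for KRT8 and 0.35 for KRT18. CDH1 was at −0.09 and KRT5 at −0.40.

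CAV1 (ENSG00000105974) lies on chromosome 7 from 116524785 to 116561184, plus strand, in the GRCh38 gene models of the files. CAV2 (ENSG00000105971) lies just before it on the same strand, from 116287380 to 116508541, with 16.2 kb between the 2 genes. CAVIN1 (ENSG00000177469, older symbol PTRF) is on chromosome 17 from 42402452 to 42423517, CAVIN2 (ENSG00000168497, SDPR) on chromosome 2 from 191834302 to 191847255, and CAVIN3 (ENSG00000170955, PRKCDBP) on chromosome 11 from 6318946 to 6320647, each on the minus strand and each with 2 annotated exon blocks. The 5 genes thus stand at 4 separate places in the genome.

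The 250 bases before the most upstream RefSeq start of CAV1, CAV2 and CAVIN2 (GRCh38.p14) are shown because CAV1 and CAV2 were both lower in TRPV3-OE while CAVIN2 was higher. RefSeq windows were at hand for 3 of the 5 genes, with 3 starts for CAV1, 2 for CAV2 and 1 for CAVIN2, which leaves CAVIN1 and CAVIN3 without one. Capitals mark matches on either strand to the GC box GGGCGG in the caveolin windows and to the TEAD motif CATTCC in the CAVIN2 window.
CAV1, chr7:116524759-116525008, plus strand: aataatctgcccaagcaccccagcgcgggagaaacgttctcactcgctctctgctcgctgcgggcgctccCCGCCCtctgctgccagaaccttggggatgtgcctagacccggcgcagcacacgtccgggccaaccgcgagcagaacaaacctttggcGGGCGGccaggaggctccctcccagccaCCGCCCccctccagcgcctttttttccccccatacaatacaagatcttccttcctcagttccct
CAV2, chr7:116499488-116499737, plus strand: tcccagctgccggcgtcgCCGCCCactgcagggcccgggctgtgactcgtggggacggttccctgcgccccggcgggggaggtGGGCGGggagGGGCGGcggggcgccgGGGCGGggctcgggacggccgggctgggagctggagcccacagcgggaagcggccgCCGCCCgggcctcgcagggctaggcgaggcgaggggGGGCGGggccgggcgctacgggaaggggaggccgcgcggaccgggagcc
CAVIN2, chr2:191847089-191847338, minus strand: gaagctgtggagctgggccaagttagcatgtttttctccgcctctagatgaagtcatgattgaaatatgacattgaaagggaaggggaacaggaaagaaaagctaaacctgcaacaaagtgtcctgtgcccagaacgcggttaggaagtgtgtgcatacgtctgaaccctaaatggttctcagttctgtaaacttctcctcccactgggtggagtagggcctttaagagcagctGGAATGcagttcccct

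The CAV2 window shown is 83.2% G or C with 35 CpG dinucleotides and 6 GC box matches, and the CAV1 window shown is 63.6% G or C with 18 CpG and 3 GC box matches. The order of these genes depends on the start. The other CAV2 window is 70.0% G or C with 27 CpG and 3 GC box matches, and the other CAV1 windows are 63.2% G or C with 16 CpG and 3 matches, and 73.2% G or C with 29 CpG and 2 matches. The CAVIN2 window is 48.0% G or C, with 4 CpG, 0 GC box matches and 1 match to the TEAD motif from 16 to 11 bases before the start. Over 35114 RefSeq windows of this length, the median was 58.0% G or C and 11 CpG, 42.6% held the GC box and 11.9% held CATTCC. The CCAAT box (CCAAT), TATA box (TATAAA), AP-1 motif (TGANTCA) and E-box CACCTG, also searched on both strands, had 0 matches in the 6 windows and are in 32.0%, 10.7%, 6.57% and 17.5% of all windows. A match is letters in a window and not a bound site, and counts per gene do not show which start these cells use. The CAV2 model that was counted starts at 116287380, far upstream of both CAV2 windows. The counted CAV1 model starts at 116524785, so most of the CAV1 window shown lies inside that gene. The counted CAVIN2 model, on the minus strand, starts at 191847255, within the CAVIN2 window. The TEAD match thus lies inside the counted CAVIN2 gene, although it is before the RefSeq start. The first bases after the CAV2 window shown occur in 1 of 15 annotated CAV2 transcripts.

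CAV1 and CAV2 were both lower in TRPV3-OE cells, and CAV1 by more. CAV1, the main structural caveolin outside muscle, had 8995 counts in TRPV3-OE and 22838 in WT, or 505 CPM (495 to 516) against 1333 CPM (1316 to 1351). It was 2.64-fold lower in TRPV3-OE, a log2 ratio of −1.40 (−1.44 to −1.37). CAV1 was the 253rd most abundant of 11466 measured genes per length in TRPV3-OE and the 64th in WT, where measured means at least 100 counts summed over both libraries.

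CAV2, which joins CAV1 in mixed oligomers and needs it to reach the cell surface, had 2866 counts in TRPV3-OE and 5454 in WT. Its level was 161 CPM (155 to 167) in TRPV3-OE and 318 CPM (310 to 327) in WT. The log2 ratio of −0.98 (−1.05 to −0.92), or 1.98-fold lower, puts CAV2 at the 2-fold line, with the interval on both sides of it. The log2 ratio of CAV1 was lower than that of CAV2 by more than counting error, with a difference of −0.42 (−0.49 to −0.34).

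The 3 cavins did not move alike. CAVIN1, the coat protein without which caveolae do not form, had 6151 counts in TRPV3-OE and 7923 in WT, or 345 CPM (337 to 354) against 463 CPM (452 to 473). That is 1.34-fold lower, with a log2 ratio of −0.42 (−0.47 to −0.37), the smallest difference among the 5 genes. CAV1 was thus lower relative to CAVIN1 than in WT, with a difference between their log2 ratios of −0.98 (−1.04 to −0.92).

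CAVIN2, a cavin that binds phosphatidylserine and bends membranes, had 395 counts in TRPV3-OE and 134 in WT. Its level was 22.2 CPM (20.0 to 24.5) in TRPV3-OE and 7.82 CPM (6.56 to 9.27) in WT, 2.84-fold higher (log2 ratio 1.503, 1.22 to 1.80). CAVIN2 was the only one of the 5 genes above its WT level.

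CAVIN3, a cavin first described as a binding protein of protein kinase C delta, had 65 counts in TRPV3-OE and 252 in WT, or 3.65 CPM (2.82 to 4.65) against 14.7 CPM (12.95 to 16.6). It was 4.03-fold lower (log2 ratio −2.01, −2.43 to −1.61), the lowest ratio among the 5 genes and also the one with the fewest counts in TRPV3-OE. Between CAVIN2 and CAVIN3 the log2 ratios differed by 3.51 (3.01 to 4.02), the widest of the 10 pairs that the 5 genes form.

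**Figure D1:**
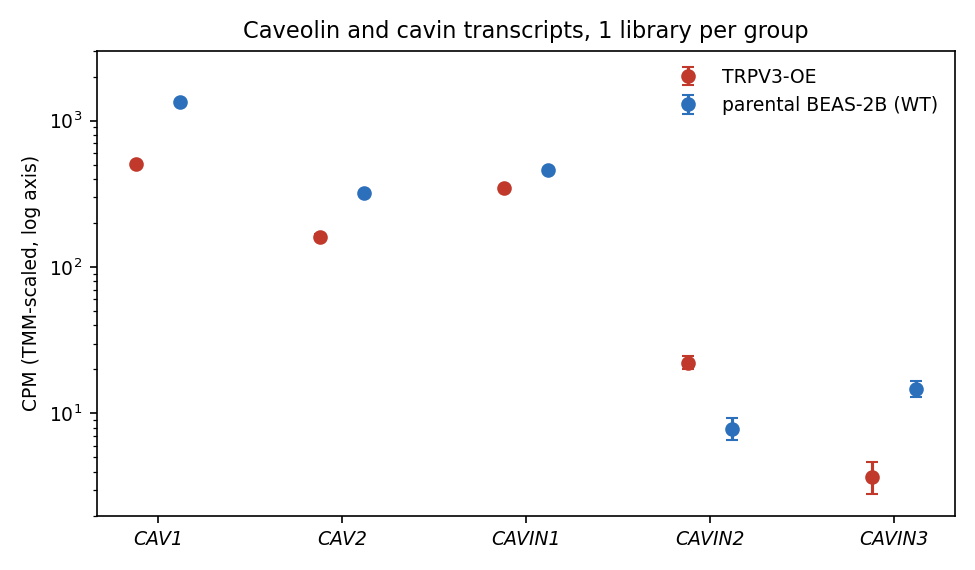
TMM-scaled CPM (log axis) of the 2 caveolins and 3 cavins in the TRPV3-OE and WT libraries, 1 library each, with exact 95% Poisson intervals for counting error as bars, often smaller than the point. CAV1, CAV2, CAVIN1 and CAVIN3 were lower in TRPV3-OE and CAVIN2 was higher, at 22.2 CPM against 7.82 CPM.

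A gene counted as called at a ratio beyond 2-fold whose interval excluded a ratio of 1. By this rule 2 of the 5 genes were lower in TRPV3-OE (CAV1 and CAVIN3), where 5.35% of the 11466 measured genes were, and 1 of 5 was higher (CAVIN2), where 5.31% were. In either direction 3 of 5 were called, against 10.7% of measured genes. Because the members were chosen with earlier results of these data known, these shares are no test of the family. The median log2 ratio of measured genes was −0.03. Set among them, 1.37% of measured genes had a lower ratio than CAVIN3, 2.75% a lower one than CAV1, 5.49% than CAV2 and 21.5% than CAVIN1, while 2.57% had a higher ratio than CAVIN2.

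**Figure D2:**
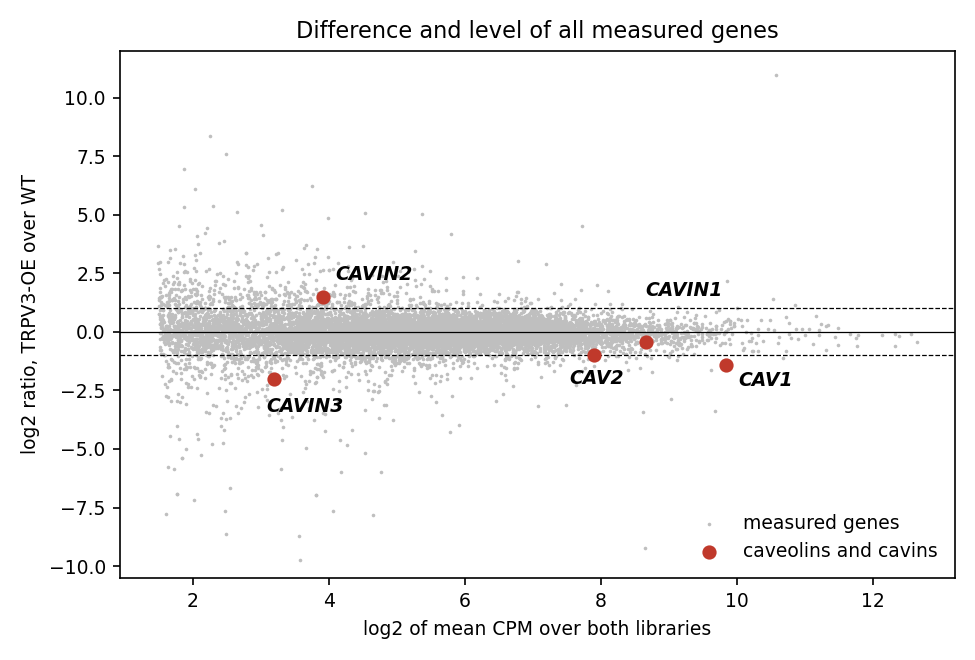
Log2 ratio of TRPV3-OE over WT against the log2 of the mean CPM for 11466 measured genes (grey) and the caveolins and cavins (red), with dashed lines at 2-fold in either direction. CAV1 stands among the most abundant genes at a log2 ratio of −1.40, while CAVIN2 and CAVIN3 lie apart at low level, at 1.503 and −2.01.

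Levels of different genes were compared per length, as counts divided by the exon length in the files and scaled to the same total within each library (TPM). In TRPV3-OE the order was CAV1 (465 TPM), CAVIN1 (339 TPM), CAV2 (87.4 TPM), CAVIN2 (25.8 TPM) and CAVIN3 (8.21 TPM). In WT it was CAV1 (1174 TPM), CAVIN1 (434 TPM), CAV2 (165 TPM), CAVIN3 (31.6 TPM) and CAVIN2 (8.71 TPM). The first 3 places were the same in both libraries, and CAVIN2 and CAVIN3 held opposite places. CAVIN2 was 3.15 times CAVIN3 per length in TRPV3-OE, against 0.275 times in WT.

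The balance between caveolins and cavins differed as well. The 5 transcripts summed to 926 TPM in TRPV3-OE and 1814 TPM in WT. The caveolins made up 553 TPM in TRPV3-OE and 1339 TPM in WT, and the cavins 373 TPM in TRPV3-OE and 475 TPM in WT, so that cavins per caveolin were 0.676 in TRPV3-OE and 0.354 in WT. Almost all of the cavin sum was CAVIN1, which was 36.6% of the 5 transcripts in TRPV3-OE and 23.9% in WT. CAV1 was 50.2% of the 5 transcripts in TRPV3-OE and 64.7% in WT, while the share of CAV2 was 9.44% in TRPV3-OE and 9.11% in WT. CAV1 was 1.37 times CAVIN1 per length in TRPV3-OE and 2.70 times in WT, and 5.33 times CAV2 in TRPV3-OE and 7.10 times in WT. CAV2 has 24 annotated exon blocks and 6926 exonic bases, while its longest annotated transcript has 3301 bases. The shares and cavins per caveolin rest on the exon length and were not recomputed. By the longest transcript, CAV2 had 868 counts per kb in TRPV3-OE, against 414 by exon length. In WT it had 1652 against 787, so its share would be larger and cavins per caveolin lower in both libraries. With the longest annotated transcript as length, CAV1 was 3.24 times CAV2 in TRPV3-OE and 4.32 times in WT, and the order of the 5 genes within each library stayed the same.

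**Figure D3:**
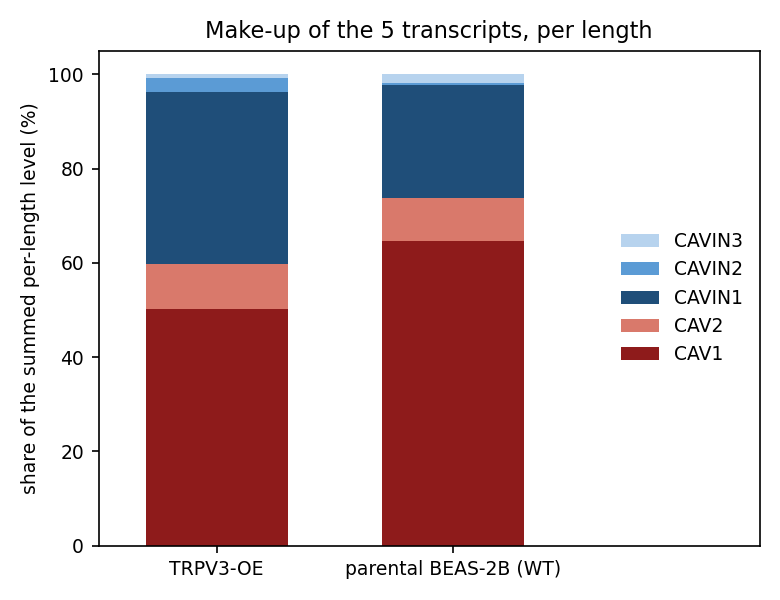
Share of each gene (percent) in the summed per-length level of the 5 transcripts, in TRPV3-OE and in WT, 1 library each and so without error bars. The caveolins (red shades) made up 59.7% in TRPV3-OE and 73.8% in WT, and the rest was cavins (blue shades), chiefly CAVIN1. Length is the exon length in the files.

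The muscle members were nearly silent. CAV3 had 0 counts in both libraries, which allows up to 0.168 CPM in TRPV3-OE and 0.175 CPM in WT (3 counts), and CAVIN4 had 9 counts in TRPV3-OE and 19 in WT.

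Of 10 genes for accessory proteins of the caveola coat and neck, 8 were measured. Of these 8, 0 were called in either direction, beside 10.7% of all measured genes. With 8 genes, 0 called cannot be told from that share. The median log2 ratio was −0.30, beside −0.03 over all measured genes. EHD2, the ATPase at the caveola neck that holds the pit at the surface, had 2222 counts in TRPV3-OE and 3621 in WT (log2 ratio −0.76, −0.84 to −0.68). PACSIN3, a membrane-bending protein of the neck known from muscle caveolae, had 343 counts in TRPV3-OE and 644 in WT, 1.95-fold lower with an interval across 2-fold (log2 ratio −0.97, −1.16 to −0.77). The 50 genes nearest to PACSIN3 had a median of −0.62, and after its subtraction PACSIN3 was at −0.34. Its relative PACSIN2, which shapes caveolae outside muscle, was at 0.05 (−0.04 to 0.14). The EHD relatives EHD1 and EHD4 had log2 ratios of −0.49 and −0.35, and EHD3, with 65 counts in TRPV3-OE and 55 in WT, had an interval from −0.36 to 0.73. Dynamin 2 (DNM2), the GTPase of membrane fission, had a log2 ratio of −0.18, and filamin A (FLNA), which ties CAV1 to actin, one of −0.25. PACSIN1 and ROR1 were below the count minimum.

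Among genes of caveolin turnover, 0 of 3 were called, beside 10.7% of all measured genes, a share that so short a list cannot be told from. VCP, the ATPase that sorts ubiquitylated CAV1 towards lysosomes, had a log2 ratio of −0.49 and its cofactor UBXN6 one of −0.40, while the ubiquitin ligase ZNRF1 was at 0.13 (−0.10 to 0.37).

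Of 10 signalling genes whose proteins have been described in caveolae, 8 were measured, 1 was called lower and 0 were called higher, where 10.7% of all measured genes were called in either direction. Their median log2 ratio was −0.24. The called gene was FYN, a Src family kinase, with 41 counts in TRPV3-OE and 89 in WT (log2 ratio −1.17, −1.75 to −0.63). SRC, the kinase that phosphorylates CAV1 on tyrosine, was higher in TRPV3-OE without reaching 2-fold, with 3904 counts in TRPV3-OE and 2330 in WT (log2 ratio 0.69, 0.61 to 0.76). YES1, of the same kinase family, had a log2 ratio of −0.01 (−0.09 to 0.08). The TGF-beta receptor genes TGFBR2 (−0.63) and TGFBR1 (−0.48) were on the lower side, INSR was at −0.78 (−1.29 to −0.28), and the growth factor receptors EGFR (0.12) and IGF1R (0.03) were near 0. NOS3, the endothelial nitric oxide synthase that CAV1 binds, had 0 counts in both libraries.

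Raft scaffolds outside caveolae were split. Flotillins, which form flat membrane domains, had log2 ratios of −0.68 (FLOT1) and −0.46 (FLOT2), whereas STOM, which encodes stomatin, a hairpin membrane protein like the caveolins, had 5086 counts in TRPV3-OE and 1825 in WT and was 2.68-fold higher (2.54 to 2.83, log2 ratio 1.42). Of 5 genes in this list 1 was called higher and 0 lower, beside 5.31% and 5.35% of all measured genes, with a median of −0.46, and ERLIN1 and ERLIN2 of the endoplasmic reticulum were at 0.05 and −0.47.

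In the clathrin list, the coat of the other main route of endocytosis, 1 of 12 genes was called higher and 0 lower, near the 5.31% and 5.35% of all measured genes, and the median was −0.28. The called gene was DNM1, dynamin 1, with 805 counts in TRPV3-OE and 384 in WT (log2 ratio 1.01, 0.83 to 1.19), which was 0.69 after the median of the 50 nearest genes was subtracted and then no longer past 2-fold. The heavy chain gene CLTC was at −0.27, the light chains CLTA and CLTB at −0.30 and −0.59, and the 5 AP-2 subunits ranged from −0.57 (AP2A2) to 0.17 (AP2B1). The remaining adaptors EPN1, PICALM and EPS15 were at −0.30, 0.02 and 0.31. The same subtraction turned the direction of AP2A2, to 0.13, and of EPS15, to −0.15. In the other lists of the pathway it turned DNM2 to 0.05, EGFR to −0.09 and ERLIN1 to −0.15. Apart from STOM, FYN and DNM1, the measured genes of these lists lay between the 2-fold lines.

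**Figure D4:**
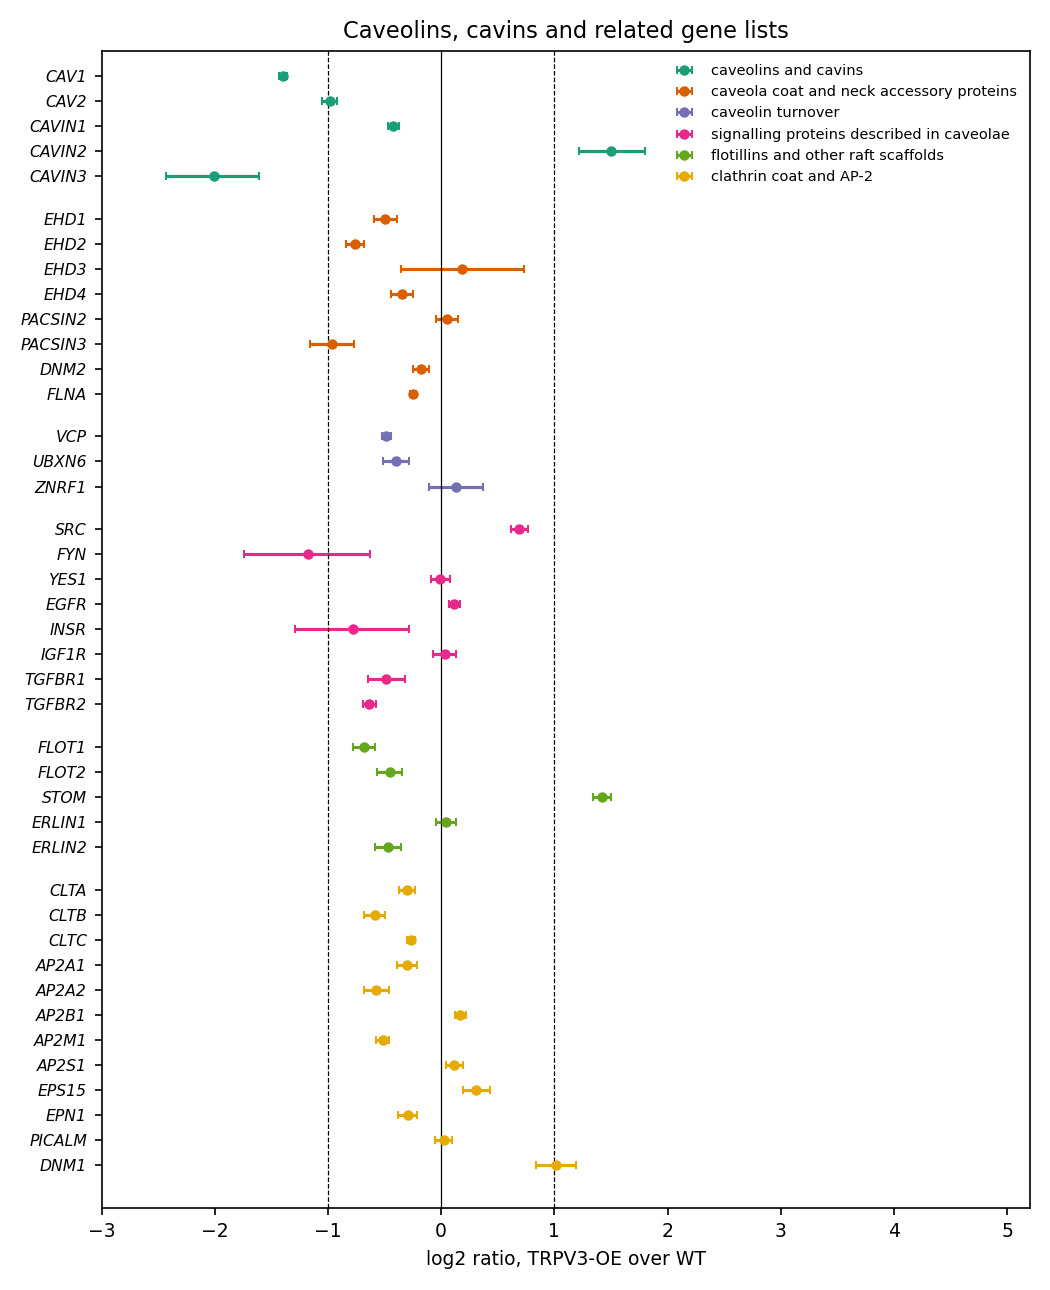
Log2 ratio of TRPV3-OE over WT for the caveolins and cavins and for measured genes of 5 related lists, with exact 95% intervals for counting error as bars and dashed lines at 2-fold. CAV1, CAVIN3 and FYN lie below the lower line, and CAVIN2, STOM and DNM1 above the upper one.

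Neighbouring genes on the chromosome gave the caveolins and cavins different surroundings. Around CAV1 and CAV2 the adjacent measured genes TES, MET and CAPZA2 had log2 ratios of 0.13, 0.07 and −0.02. Within 5 Mb on either side, 16 other measured genes had a median of 0.16, and 0 of them were at or below −1. Relative to the median of the 50 nearest genes (0.17), CAV1 was at −1.57 and CAV2 at −1.15, so that CAV2 then lay past 2-fold.

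CAVIN1 stood beside STAT3 (log2 ratio 0.20) and ATP6V0A1 (0.66), and after subtraction of a local median of 0.22 it was at −0.64, against −0.42 before. Near CAVIN2, STAT4 was at −0.01 and NABP1 at −0.49, the local median was −0.10, and CAVIN2 was at 1.61 after subtraction. Of 22 other measured genes within 5 Mb of CAVIN2, 1 was at or above 1.

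CAVIN3 lay in a stretch of the short arm of chromosome 11 where many genes were lower in TRPV3-OE. The 60 other measured genes within 5 Mb had a median log2 ratio of −0.58, and 10 of them were at or below −1. Among its neighbours SMPD1 was at −1.24, TRIM3 at −1.16, TRIM22 at −1.03, FHIP1B at −0.52 and TRIM5 at −0.50, while APBB1 was at 0.29. After the local median of −0.64 was subtracted, CAVIN3 was at −1.37, still past 2-fold as a point value. Its interval for counting error, moved by the same median, would reach across the 2-fold line. What part of the lower CAVIN3 level goes with this stretch was not tested.

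**Figure D5:**
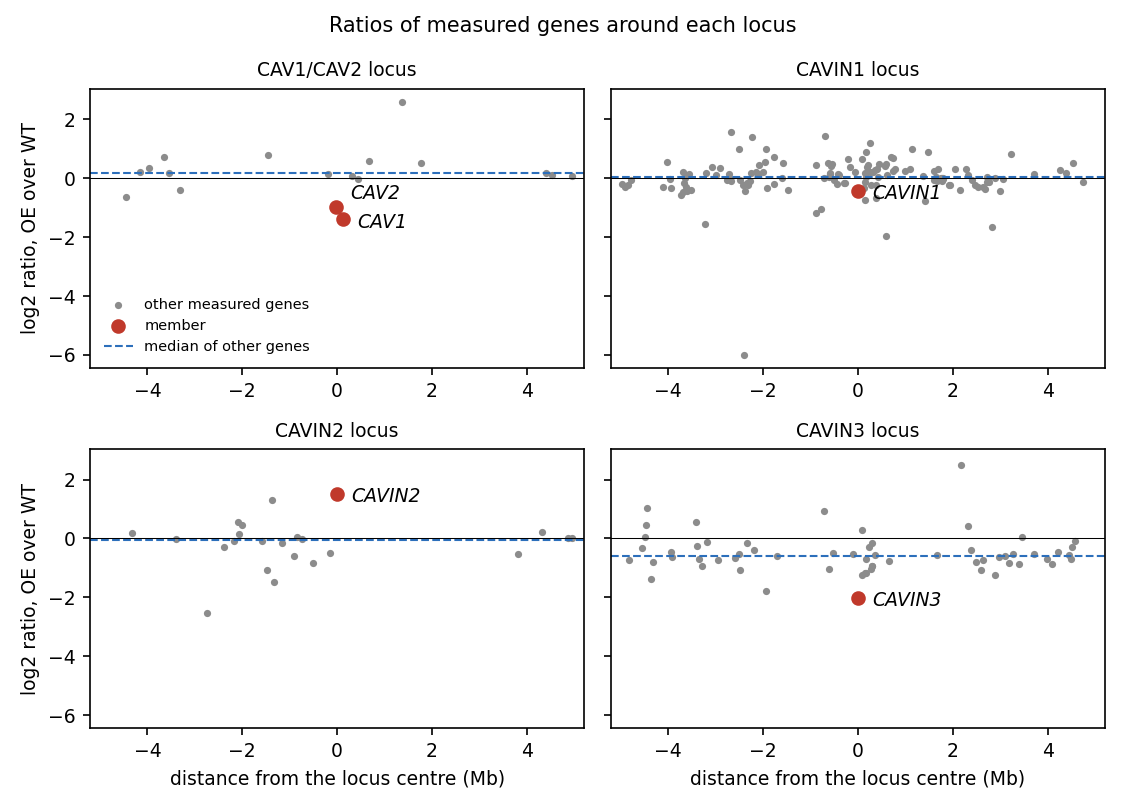
Log2 ratio of TRPV3-OE over WT for measured genes within 5 Mb of each locus, by distance from its centre (Mb), with members in red and the median of the other genes as a dashed blue line. CAV1 and CAV2 lie below the other genes of their window, whose lowest ratio was −0.65, and CAVIN3 lies in a window whose median is −0.58.

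Markers of other cell types rich in caveolae were few. In the endothelial list 1 of 6 genes was measured: CDH5 had 35 counts in TRPV3-OE and 268 in WT (log2 ratio −2.99, −3.55 to −2.48), while KDR, TEK and CLDN5 had 0 counts in both libraries, and the list summed to 3.26 CPM in TRPV3-OE and 16.7 CPM in WT. Fibroblast markers summed to 16.4 CPM in TRPV3-OE and 24.4 CPM in WT, nearly all from COL1A1, with LUM at 0 in both. Smooth muscle markers summed to 6.23 CPM in TRPV3-OE and 9.58 CPM in WT, with CNN1 and DES at 0 in both. Most of this sum was ACTA2, at 5.62 CPM in TRPV3-OE and 8.06 CPM in WT. Adipocyte markers summed to 0.562 CPM in TRPV3-OE and 0.117 CPM in WT, with ADIPOQ, FABP4 and LEP at 0 in both. The alveolar type 1 list summed to 9.66 CPM in TRPV3-OE and 10.3 CPM in WT, with HOPX at 0 in both. Nearly all of it was AGER, at 9.43 CPM in TRPV3-OE and 9.75 CPM in WT. CAV1 alone was at 505 CPM in TRPV3-OE and 1333 CPM in WT, many times each of these sums, which are not per length. Whether such cells added to the CAV1 counts was not tested.

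By distance between log2 CPM values over the 2 libraries, the symbol-bearing gene nearest to each member was THBS1 for CAV1, AKT1 for CAV2, IMPDH2 for CAVIN1, MACC1 for CAVIN2 and IRF7 for CAVIN3. THBS1 had 6842 counts in TRPV3-OE and 20335 in WT, and at a distance of 0.43 it was the least close of these matches. The others lay within 0.06 of their member. With 2 libraries many genes share such a pattern.

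Few stretches of these genes were shared exactly with annotated transcripts of other genes. Only the longest annotated transcript of each gene was searched, which for CAV2 has 3301 bases beside 6926 exonic bases. Near matches, the rest of the genome and the reads themselves were not searched. Of the stretches of 50 bases in the longest annotated transcript, 0 of 3152 in CAV1, 0 of 3180 in CAVIN2 and 0 of 1125 in CAVIN3 also occurred in a transcript of another gene, against 3 of 3779 in CAVIN1 and 37 of 3252 in CAV2. An unnamed gene on the opposite strand (ENSG00000237813) shares 76 exonic bases with CAV2 and had 3 counts in TRPV3-OE and 8 in WT. The antisense gene CAVIN2-AS1 shares 233 exonic bases with CAVIN2 and had 0 counts in both libraries under the strand-specific counting.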

How the data were processed

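RNA-seq counts per gene were deposited for 1 TRPV3-OE and 1 WT library. The authors made the counts using featureCounts version 1.5.0-p3, set to count the opposite strand, and Ensembl release 87 models (GRCh38.p7), per the file headers, which show no option for multi-mapping reads or paired ends. Per the submitters' processing notes, STAR and DESeq2 were also used, in versions not given in the sources used here. The deposited counts are not normalised.

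Symbols were matched for 56948 of 58051 IDs. Libraries were scaled with TMM (edgeR 4.0.16, R 4.3.3), and no model was fitted. CPM values have exact Poisson intervals and ratios exact conditional binomial (Clopper-Pearson) intervals at 95%, with a count of 0 set to 0.5. Differences between members' log2 ratios have exact conditional odds-ratio intervals (scipy 1.17.1). Genes needed 100 summed counts. The ratio calculation was tested on simulated data. Transcript lengths and shared stretches came from GENCODE 29, promoter windows from RefSeq.

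The members and lists were chosen with earlier results of these data known. Members, TRPV3, measured list genes, the 3 nearest measured genes on each side and each member's nearest pattern could be named; 1 result under this rule is not reported here. Alternatives were other scalings (DESeq2 1.42.0 among them), a prior count, other minimums and limits, local medians and another length.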

Additional observations from a re-analysis of the deposited data

How the results depend on the processing

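No paired analysis was possible because the groups hold a single library each (n = 1), so no replicate could be left out either. All member ratios kept their direction under 3 other scalings, a prior count of 5 and a correction by the median of the 50 nearest genes. The log2 ratio of CAV1 was −1.35 with total counts, −1.36 with DESeq2 size factors and −1.34 with upper quartile scaling, and that of CAVIN1 was −0.37 with total counts and −0.36 with upper quartile. Minus the local median, CAV1 was at −1.57, CAV2 at −1.15, CAVIN1 at −0.64 and CAVIN3 at −1.37. No other scaling moved the median over measured genes by more than 0.0582. The other 16 alternative values of member ratios lay within their intervals.

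At a limit of 4-fold 1 member was lower and 0 higher, and at a minimum of 500 counts 1 was lower, since fewer genes qualify by construction. For all genes, 614 lower and 609 higher became 1627 and 1455 at 1.5-fold, 159 and 151 at 4-fold, 1121 and 1347 with no minimum beyond 1 count, 942 and 1094 at a minimum of 20, and 323 and 245 at 500. With the longest transcript as length, CAV1 over CAV2 was 3.24 in TRPV3-OE and 4.32 in WT, CAV1 over CAVIN1 was 1.75 in TRPV3-OE and 3.45 in WT, and CAVIN2 over CAVIN3, a setting chosen after seeing the data, was 2.21 in TRPV3-OE and 0.193 in WT. With 65 counts, the TRPV3-OE level of CAVIN3 is the least precise of the members.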
